A study of Mus musculus with 6 samples.

Results

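The genes described here are 9 genes through which blood stem cells hold on to, reach or leave their place in the bone marrow. They are the chemokine receptor gene Cxcr4, the integrin genes Itga4, Itgb1, Itgal and Itgb2, the selectin ligand gene Selplg, the hyaluronan receptor gene Cd44, and the egress genes S1pr1 and Cd69. They were taken from a list of gene names, and all 9 were found among the 28786 gene IDs of the count table. The cells were haematopoietic stem cells (HSCs) from bone marrow of C57BL/6 mice, genotype wild type and 6 to 8 weeks old, sorted on TMRM, a dye that gathers in mitochondria according to their membrane potential. The sort gate was lineage-negative, Sca-1+, c-Kit+, CD48- and CD150+, and 1500 cells went into each library. RNA was measured in 3 TMRM-high and 3 TMRM-low libraries, and the question is which RNAs differ between HSCs with a high and a low dye signal. No treatment is labelled, and neither the TMRM limits of the sort nor the number of mice could be taken from the labels.

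HSCs are held in the marrow by the chemokine CXCL12, which stromal cells release and CXCR4 senses. Integrins, which are pairs of an alpha and a beta chain, bind ligands on niche cells and vessel walls: the alpha-4 and beta-1 pair (VLA-4) binds VCAM-1 and fibronectin, and the alpha-L and beta-2 pair (LFA-1) binds ICAM proteins. PSGL-1, the product of Selplg, lets cells roll on selectins of the vessel wall, and CD44 binds hyaluronan. The lipid sphingosine 1-phosphate in blood draws cells out through S1PR1, and CD69 binds S1PR1 and removes it from the cell surface, which keeps cells in the tissue.

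Values are CPM, counts scaled to a common library size after TMM scaling. A log2 fold change above 0 means a higher level in TMRM-high libraries and is given with its standard error (SE), and adjusted p-values are from edgeR's two-sided quasi-likelihood test with Benjamini-Hochberg adjustment over 13662 tested genes, called below 0.05. Total counts were 14270069 to 22070594 in TMRM-high and 15930495 to 18431567 in TMRM-low libraries. The TMRM-high libraries were far more alike than the TMRM-low libraries: chi-square per degree of freedom between libraries of a group was 3.98 to 6.74 in the former and 46.0 to 51.4 in the latter, where counting noise alone gives about 1. The labels do not tie a library to a mouse, and the spread that p-values rest on here is therefore that between libraries, which may be technical. Fold changes and calls of the members, the other adhesion and homing genes and the genes of similar pattern were therefore also computed with the TMRM-high libraries summed into 1. In this fit the lone sample is assumed to vary like the TMRM-low libraries, so that its p rests on the spread of those 3 alone. The lists of marker genes and immediate early genes were not counted again in this fit. Genes of other blood cells differed between the groups as well. The summed level of 18 granulocyte and monocyte genes was 16073 to 16440 CPM in TMRM-high and 3874 to 4224 CPM in TMRM-low libraries, that of 14 B lymphoid genes was 2122 to 2143 and 550 to 632 CPM, and that of 17 HSC genes was 1012 to 1017 and 1757 to 1933 CPM. Of the HSC genes 1 was higher, 7 lower and 9 not called, and without Ifitm1 the sum was 891 to 897 and 1161 to 1244 CPM. The granulocyte and monocyte genes were not higher throughout. Granule genes such as Elane rose, as did Ly6c2 (2.4), which monocytes also express. The monocyte genes Ccr2 (-1.36) and F13a1 (-0.93) fell and Csf1r (-0.26) did not pass. Of 9 basophil, mast cell and eosinophil genes 6 were higher (526 to 535 against 191 to 208 CPM summed), and of 7 tested endothelial genes 1 was higher and 1 lower (at most 205 CPM summed in TMRM-high and 251 to 293 CPM in TMRM-low libraries). Epx, Ms4a1 and Plvap, each a defining gene of one of these other cell types, had no count in TMRM-low libraries. Epx (1.34 ± 0.653 CPM) and Ms4a1 (0.971 ± 0.488 CPM) were near the floor in TMRM-high libraries as well. Of the genes of the sort markers, Ly6a (Sca-1) fell from 167 ± 7.77 to 30.3 ± 2.18 CPM, while Kit, Slamf1 (CD150) and Cd48 did not pass, and Cd48, a gene of the negative gate, was at 147 ± 2.82 and 137 ± 22.6 CPM. In bulk libraries, fewer cells of a type and less RNA per cell cannot be told apart.

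Cd69 was higher and Selplg was lower in TMRM-high libraries, and the other 7 genes did not pass the test. Called members made up 2 of 9, 1 in each direction. Of all tested genes 11% were called, 5.84% higher and 5.12% lower, so with 9 members the count by itself is close to what the whole table gives. The groups did not overlap for 5 members, 4 higher and 1 lower, against 35.4% of all tested genes (18.4% higher and 17.0% lower). All 9 members passed the low-count filter, with 176 to 6620 counts in a library.

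**Figure D1:**
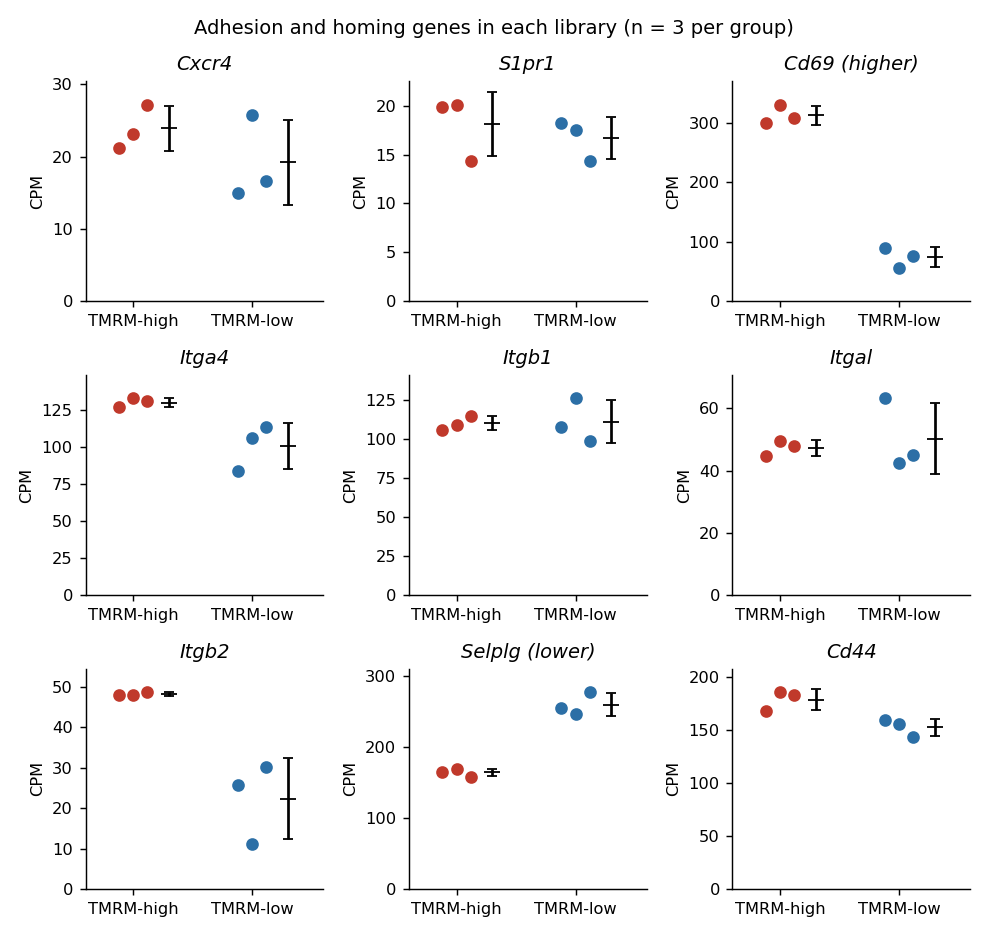
CPM of each of the 9 genes (vertical axes, each starting at 0) in the 3 TMRM-high (red) and 3 TMRM-low (blue) libraries, with the group mean and SD in black. Cd69 sits at 300.3 CPM or more in every TMRM-high library and at 90.0 CPM or less in every TMRM-low library, and Selplg shows the opposite order with a smaller gap.

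Cd69, the early activation antigen gene (ENSMUSG00000030156, chromosome 6, 129267325 to 129275436 on GRCm38, minus strand), had 300.3, 331 and 308 CPM in TMRM-high libraries. It had 90.0, 56.2 and 75.7 CPM in TMRM-low libraries. The lowest TMRM-high library thus held more than 3 times the level of the highest TMRM-low library, and the groups did not come near each other. The means were 313 ± 16.1 against 74.0 ± 16.9 CPM (SD, n = 3 each), a 4.24-fold difference. The log2 fold change was 2.08 (SE 0.162, 95% interval 1.70 to 2.46, edgeR adjusted p = 0.00028), which placed Cd69 at rank 93 by p among all tested genes. It was called with any 1 library left out (log2 fold change 1.92 to 2.25). With the TMRM-high libraries summed it was 2.08 (adjusted p = 0.012). Immediate early genes, which cells switch on quickly after a stimulus or handling, were higher in the same libraries. Of 22 such genes, listed after the data were seen, 17 of 21 tested were higher and none lower, with a summed level of 11494 to 12021 CPM in TMRM-high and 6198 to 6834 CPM in TMRM-low libraries. Cd69 is also carried by B, T, NK and myeloid cells. The summed level of 14 T and NK genes was 636 to 648 against 430 to 496 CPM, with 1 of 11 tested genes higher (the cytotoxic granule gene Nkg7) and 5 lower. Without Nkg7 the sum was 81.2 to 87.1 against 237 to 258 CPM, and the median log2 fold change of the list was -2.54. Of the other lists, 12 of 14 B lymphoid and 12 of 17 granulocyte and monocyte genes were higher. The part of these cells or of early gene induction in the Cd69 difference was not tested.

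S1pr1, the sphingosine 1-phosphate receptor gene that CD69 acts on as a protein (chromosome 3, 115710433 to 115715072, minus strand), had 19.9, 20.1 and 14.3 CPM in TMRM-high libraries. TMRM-low libraries had 18.2, 17.5 and 14.3 CPM, so the ranges of the groups lay almost on top of each other. The log2 fold change was 0.12 (SE 0.250, edgeR adjusted p = 0.82), and its 95% interval of -0.46 to 0.70 leaves room for a difference of either sign. The RNA of this target of CD69 thus differed by less than its spread between libraries.

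Cxcr4, the receptor gene for CXCL12 (chromosome 1, 128588199 to 128592293, minus strand), had 21.2, 23.1 and 27.2 CPM in TMRM-high libraries. It had 15.0, 25.8 and 16.6 CPM in TMRM-low libraries, where library 2 reached the TMRM-high range and the other 2 stayed below it. The means of 23.9 ± 3.06 and 19.2 ± 5.83 CPM differed by less than the spread of the TMRM-low libraries (log2 fold change 0.32, SE 0.266, 95% interval -0.30 to 0.93, edgeR adjusted p = 0.52). Without TMRM-low library 2 the log2 fold change was 0.59, still short of the threshold (adjusted p = 0.095).

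**Figure D2:**
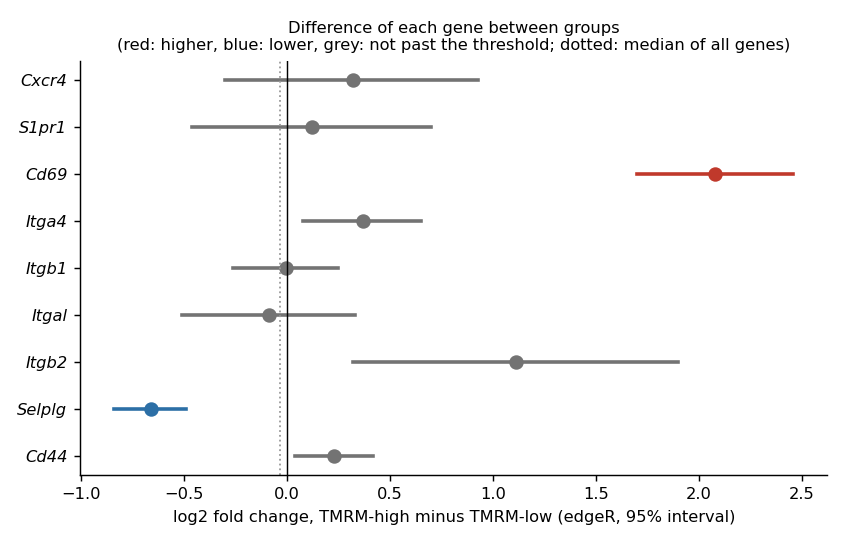
Log2 fold change of each of the 9 genes between TMRM-high and TMRM-low libraries (horizontal axis, points) with its 95% interval from the edgeR fit, not adjusted for the number of genes tested (lines). Cd69 at 2.08 (red) and Selplg at -0.66 (blue) passed the adjusted threshold, and the intervals of Itgb2, Itga4 and Cd44 lie above 0 although their adjusted p-values were between 0.079 and 0.12.

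Selplg, the gene of the selectin ligand PSGL-1 (ENSMUSG00000048163, chromosome 5, 113818536 to 113832644, minus strand), had 165, 169 and 158 CPM in TMRM-high libraries. All 3 TMRM-low libraries were above these, at 255, 246 and 277 CPM. The means were 164 ± 5.44 against 259.7 ± 16.0 CPM, 1.58-fold higher in TMRM-low libraries (log2 fold change -0.66, SE 0.0749, 95% interval -0.84 to -0.49, edgeR adjusted p = 0.0015). The groups did not overlap, and Selplg ranked 224 by p among all tested genes. With any 1 library left out the value stayed between -0.70 and -0.61 and was called. With the TMRM-high libraries summed it was -0.66 and not called (adjusted p = 0.23). PSGL-1 is abundant on myeloid cells. In the same libraries 12 granulocyte and monocyte genes were higher and 2 lower of 17 tested, and 2 macrophage and dendritic genes were higher and 7 lower of 15. Their part in the Selplg difference was not tested.

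The 4 integrin genes did not move as a group. Itga4, the alpha-4 chain gene (chromosome 2, 79255426 to 79333123, plus strand), had 127, 133 and 131 CPM in TMRM-high libraries and 83.7, 106 and 114 CPM in TMRM-low libraries. Every TMRM-high library was above every TMRM-low library, but the log2 fold change of 0.37 (SE 0.123, 95% interval 0.079 to 0.65) did not pass (edgeR adjusted p = 0.11). DESeq2 called it at the same size (adjusted p = 0.043), and edgeR did so without TMRM-low library 3 (0.46, adjusted p = 0.041). Exons of Itga4 overlap those of Cerkl, a gene on the opposite strand, over 1124 bases, and counting by strand is not given in the sources used here, so reads of the 2 genes there cannot be told apart. Cerkl itself had 3.67 to 6.04 CPM in TMRM-high and 5.06 to 14.3 CPM in TMRM-low libraries. With the counts of both genes added, a setting chosen after seeing the data, the log2 fold change was 0.30 (adjusted p = 0.20).

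Itgb1, the beta-1 chain gene that pairs with alpha-4 (chromosome 8, 128685654 to 128733200, plus strand), had 106, 109 and 115 CPM in TMRM-high libraries. The TMRM-low libraries, at 108, 126 and 98.6 CPM, lay on both sides of these. The log2 fold change was -0.0072 (SE 0.111, 95% interval -0.26 to 0.25, edgeR adjusted p = 0.98), and its sign changed between scalings. Of the 9 genes, Itgb1 had the smallest difference.

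Itgal, the alpha-L chain gene (chromosome 7, 127296260 to 127335138, plus strand), had 44.6, 49.4 and 47.8 CPM in TMRM-high libraries and 63.2, 42.5 and 45.1 CPM in TMRM-low libraries. One TMRM-low library stood above the other 5, which were within 42.5 to 49.4 CPM. The log2 fold change was -0.088 (SE 0.181, 95% interval -0.51 to 0.33, edgeR adjusted p = 0.81), and without TMRM-low library 1 it was 0.12.

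Itgb2, the beta-2 chain gene of leukocytes that pairs with alpha-L and alpha-M (chromosome 10, 77530252 to 77565708, plus strand), had 48.0, 47.9 and 48.7 CPM in TMRM-high libraries. It had 25.8, 11 and 30.1 CPM in TMRM-low libraries, so the groups did not overlap and the spread lay almost wholly in the TMRM-low group. The means were 48.2 ± 0.437 and 22.3 ± 10.0 CPM, a 2.16-fold difference (log2 fold change 1.11, SE 0.339, 95% interval 0.32 to 1.90), which did not pass (edgeR adjusted p = 0.079). The call depended on the method and on single libraries. DESeq2 (adjusted p = 0.011) and limma voom with quality weights (1.24, adjusted p = 0.011) called Itgb2 higher, as did edgeR without TMRM-low library 2 (0.79, adjusted p = 0.016) or 3 (1.39, adjusted p = 0.043). DESeq2 called 4 of the 9 members, with 19.5% of all tested genes called, and limma voom 3 of 9, with 12.4%. Beta-2 integrins are leukocyte proteins. In the same libraries granule genes such as Elane (3.71) and S100a8 (3.55), and also Ly6c2 (2.4), had higher levels on the log2 scale. The monocyte genes Ccr2 (-1.36) and F13a1 (-0.93) had lower ones. The part of cells that carry these genes in the Itgb2 difference was not tested. A processed pseudogene, Gm14699, shares 2.40% of the 31-base words of Itgb2 transcripts, so few of its reads could be placed there.

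Cd44, the hyaluronan receptor gene (chromosome 2, 102811141 to 102901665, minus strand), had 168, 186 and 183 CPM in TMRM-high libraries. The TMRM-low libraries had 159.5, 156 and 144 CPM and stayed below, by a narrow gap. The log2 fold change was 0.23 (SE 0.0812, 95% interval 0.04 to 0.42), which did not pass (edgeR adjusted p = 0.12), and values with 1 library left out were 0.19 to 0.28, none called.

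**Figure D3:**
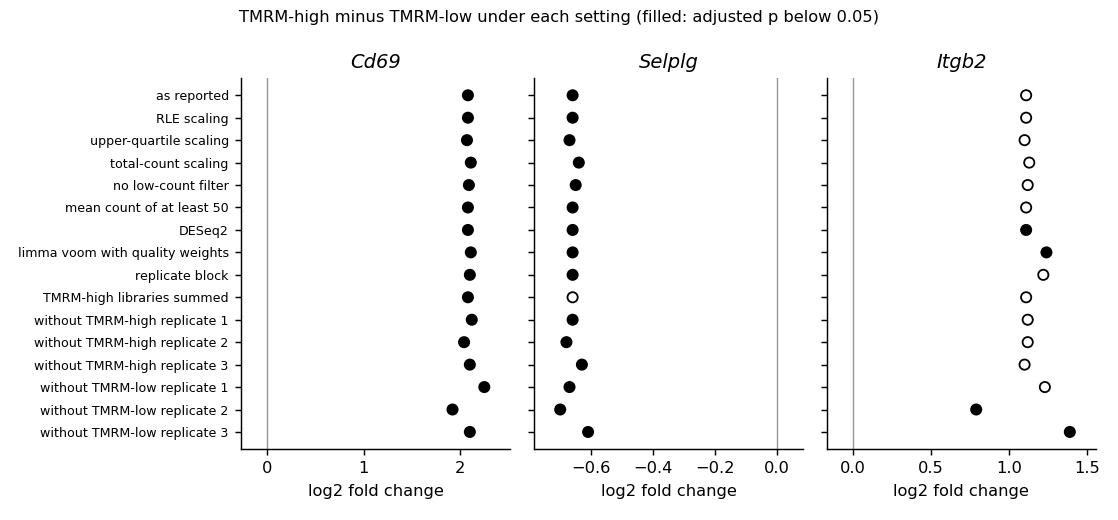
Log2 fold change of Cd69, Selplg and Itgb2 (horizontal axes) under each scaling, filter, test and left-out library (rows), with filled points where the adjusted p was below 0.05. Cd69 stays between 1.92 and 2.25 and is filled throughout, Selplg is open only with the TMRM-high libraries summed, and Itgb2 ranges from 0.79 to 1.39 and is filled in 4 settings.

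The members varied much less among TMRM-high than among TMRM-low libraries. The coefficient of variation was 0.906% (Itgb2) to 18.2% (S1pr1) in the former and 5.31% (Cd44) to 45.0% (Itgb2) in the latter, and it was larger in TMRM-low libraries for 7 of 9 genes. Counting error alone would give 1.31% to 5.91%. For Itgb2 in TMRM-high libraries the observed 0.906% was below the counting error of 3.34%. TMRM-low library 2 was the lowest of its group for Cd69, Itgb2, Itgal and Selplg and the highest for Cxcr4 and Itgb1, so the TMRM-low libraries did not differ by a common factor.

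Levels of different genes can be compared only per length, here as CPM per kilobase of the mean length of a gene's annotated protein coding transcripts. In TMRM-high libraries Cd69 had the highest level (279 ± 14.4 CPM per kilobase), followed by Selplg (221 ± 7.34), Cd44 (61.8 ± 3.31) and Itgb1 (48.6 ± 1.97). Itgb2 (36.5 ± 0.330), Cxcr4 (17.6 ± 2.26), Itga4 (13.3 ± 0.314), Itgal (10.5 ± 0.544) and S1pr1 (5.94 ± 1.08) followed, and the ranges of neighbours in this order did not overlap. In TMRM-low libraries Selplg came first (350.3 ± 21.6) and Cd69 second (65.8 ± 15.1), and the range of Cd69 overlapped that of Cd44 (52.8 ± 2.80), as that of Cd44 did with Itgb1 (48.9 ± 6.07). Below these, Itgb2 (16.9 ± 7.59), Cxcr4 (14.2 ± 4.31), Itgal (11.2 ± 2.50) and Itga4 (10.3 ± 1.59) overlapped their neighbours, and S1pr1 (5.47 ± 0.695) was lowest. With the longest transcript as the length, chosen after seeing the data, Cd69 and Selplg kept the first places and S1pr1 the last. The order between them changed. Itga4 and Cxcr4 exchanged ranks 6 and 7 in TMRM-high libraries, where their ranges then overlapped (13.3 ± 0.314 and 13.2 ± 1.70). In TMRM-low libraries Itgb2 moved from rank 5 to rank 8, Itga4 from 8 to 6 and Cxcr4 from 6 to 5, and Cd44 and Itgb1 exchanged ranks 3 and 4.

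**Figure D4:**
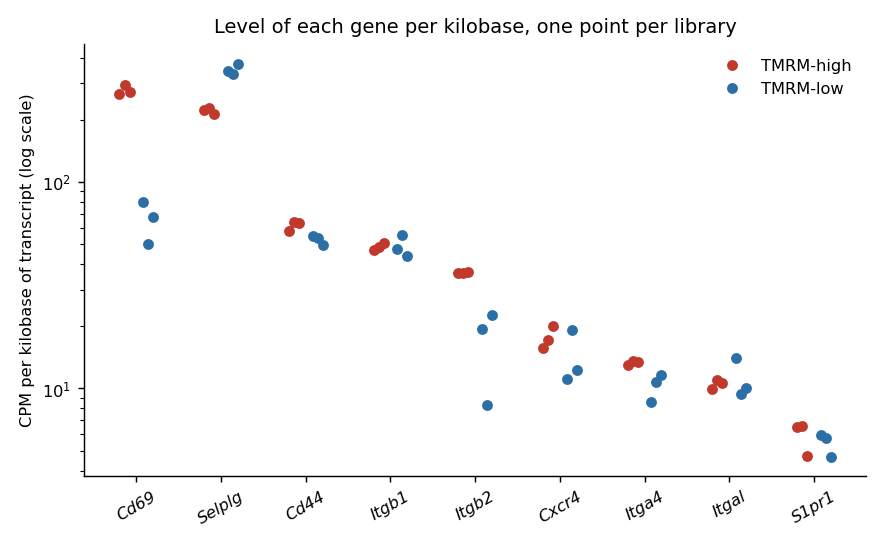
CPM per kilobase of transcript (log axis) of the 9 genes, ordered by their level in TMRM-high libraries, with 1 point for each TMRM-high (red) and TMRM-low (blue) library. Cd69 and Selplg change places between the groups, while S1pr1 stays lowest at 4.68 to 6.6 in all 6 libraries.

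The other genes of adhesion and homing were followed in 8 lists of 222 genes, of which 186 were tested. Of these, 18 were higher and 19 lower, together 19.9%, against 11% of all tested genes (5.84% higher and 5.12% lower). The lists were written with earlier results of these data known, so the gap between these shares is not a test of adhesion genes. Single lists held 11.5% to 37.5% called genes, on 12 to 39 tested genes each. Their median log2 fold change over all 8 lists was 0.036 against -0.032 for all tested genes. The receptor gene Cxcr4 sits in a group of chemokine receptors and regulators of their signal, in which 2 of 26 tested genes were higher and 1 lower (median 0.25). Both that rose encode RGS proteins, which shorten signals of G protein-coupled receptors. Rgs1 had 1072, 1165 and 1102 CPM in TMRM-high and 441, 352 and 422 CPM in TMRM-low libraries (log2 fold change 1.46, SE 0.0886, edgeR adjusted p = 9.8e-05). Rgs2 rose as well (1.13, SE 0.111, edgeR adjusted p = 0.00082), and neither gene's groups overlapped. Ccr2, a monocyte chemokine receptor gene, was lower, at 32.8 ± 5.04 against 84.1 ± 18.6 CPM (-1.36, SE 0.198, edgeR adjusted p = 0.0055). Gnai2, a G protein subunit gene (-0.33, edgeR adjusted p = 0.070), and the receptor kinase gene Grk2 (0.39, edgeR adjusted p = 0.090) did not pass, though both did with DESeq2, with limma voom and with a replicate block.

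Of 16 other integrin subunit genes tested, 2 were higher and 2 lower (median 0.33), among them other partners of the members. Itgam, whose alpha-M chain pairs with beta-2 on myeloid cells, was at 48.1, 45.2 and 47.6 CPM in TMRM-high and 21.1, 23.0 and 14 CPM in TMRM-low libraries (log2 fold change 1.28, SE 0.217, edgeR adjusted p = 0.010). Itgb7, whose beta-7 chain is the other partner of alpha-4, was lower, at 43.3, 43.3 and 45.9 against 69.3, 62.2 and 79.5 CPM, a log2 fold change of -0.67 (SE 0.137, edgeR adjusted p = 0.021). Thus each shared chain had partners with different values. Of the alpha-4 partners Itgb7 fell and Itgb1 had -0.0072, and of the beta-2 partners Itgam rose and Itgal had -0.088. The further beta-2 partners Itgax (-0.87, SE 0.865) and Itgad (-1.06, SE 1.22) did not pass. The platelet integrin gene Itga2b rose (1.23, SE 0.106) and Itga3 fell from a low level (-3.28, SE 0.838, 0.432 ± 0.317 against 4.22 ± 1.93 CPM). Itga6, a laminin receptor chain gene of HSCs (0.30, edgeR adjusted p = 0.22), and Itgb3 (0.24, edgeR adjusted p = 0.53) did not pass. Itgam, Itgb7 and Itga3 lost their calls without any 1 TMRM-high library, and Itga3 also without TMRM-low library 1 or 2.

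Among genes that switch integrins on and tie them to actin, 4 of 39 tested were higher and 2 lower (median 0.042). Called genes made up 15.4%, against 11% of all tested genes. The 4 higher were both Rap1 genes, the GTPases that bring talin to integrins, with the Rap1 activator gene Rasgrp2 and the filamin gene Flna. Rap1b had 470.4, 508 and 466 CPM in TMRM-high and 212, 206 and 255 CPM in TMRM-low libraries (log2 fold change 1.10, SE 0.0919, edgeR adjusted p = 0.00038). Rap1a rose by less (0.67, SE 0.158), as did Rasgrp2 (0.45, SE 0.0795) and Flna (0.48, SE 0.106). Coro1a, an actin regulator gene of leukocytes, fell (-0.43, SE 0.0588), as did Rasgrp1 (-2.35, SE 0.513). The GTPase genes Rac2 (0.17, edgeR adjusted p = 0.15) and Cdc42 (0.023, edgeR adjusted p = 0.90), which act in HSC homing, did not pass. Rap1b and Coro1a held their calls with any 1 library left out. Rasgrp2, Rasgrp1, Flna and Rap1a lost theirs without any 1 TMRM-high library, Flna also without TMRM-low library 2 and Rap1a without TMRM-low library 1.

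**Figure D5:**
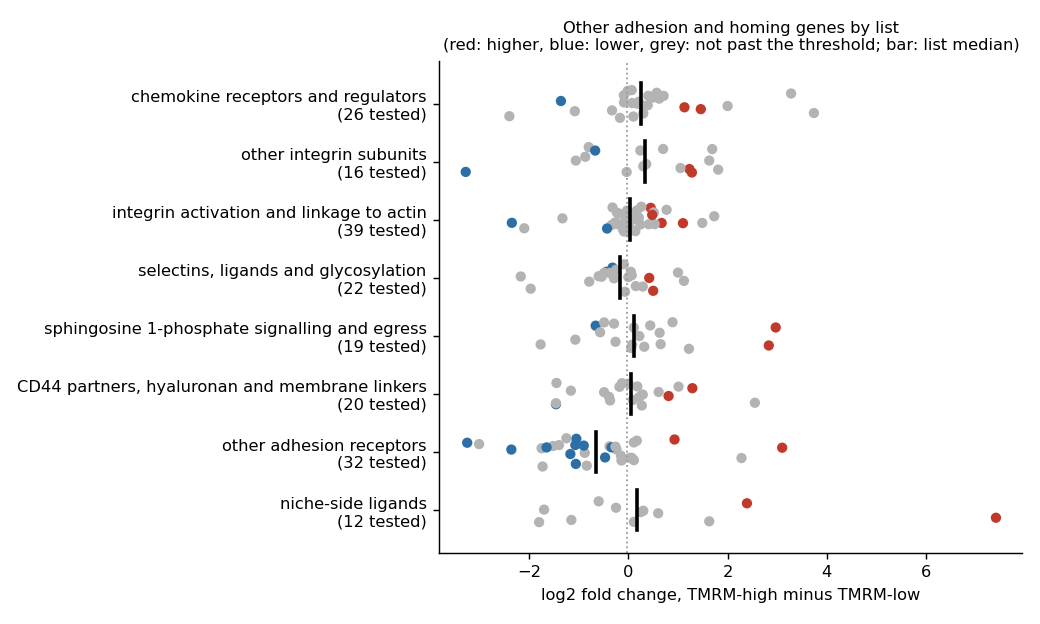
Log2 fold change between TMRM-high and TMRM-low libraries (horizontal axis) of each tested gene in the 8 lists (rows), red where higher, blue where lower and grey where not called, with the list median as a bar and the median of all genes dotted. The other adhesion receptors have a median of -0.66, and the far right point is Vcam1 at 7.41.

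Of selectins, other selectin ligands and the enzymes that decorate them with sugars, 2 of 22 tested genes were higher and 2 lower (median -0.17). The called share was 18.2%, against 11% of all tested genes. Cd34, a sialomucin gene, was lower, at 391 ± 4.28 against 530.1 ± 35.8 CPM (-0.44, SE 0.0637). Cd24a (0.50, SE 0.0959) and the glycosyltransferase gene Galnt1 (0.42, SE 0.0868) rose. B4galt1 (0.29, edgeR adjusted p = 0.26) and the leukosialin gene Spn (0.15, edgeR adjusted p = 0.31) did not pass. B4galt1 passed without TMRM-low library 1. Cd24a and Galnt1 lost their calls without any 1 TMRM-high library.

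Of sphingosine 1-phosphate genes, 2 of 19 tested were higher and 1 lower (15.8% called against 11% of all tested genes, median 0.11). Mfsd2b, the gene of a sphingosine 1-phosphate exporter of red cell precursors and platelets, had 83.9, 81.4 and 76.7 CPM in TMRM-high and 7.41, 10.3 and 13.1 CPM in TMRM-low libraries (log2 fold change 2.97, SE 0.225, edgeR adjusted p = 0.00024). The kinase gene Sphk1 was rare but higher (4.65 ± 0.150 against 0.647 ± 0.441 CPM, 2.83, SE 0.666). S1pr4, another receptor gene for this lipid, was lower, at 40.9 ± 1.86 against 64.8 ± 4.32 CPM (-0.66, SE 0.128, edgeR adjusted p = 0.017). Arhgef1, whose product carries signals of these receptors, did not pass (0.32, edgeR adjusted p = 0.059), though it did with DESeq2, with total counts as library sizes and without TMRM-low library 3. Sphk1 and S1pr4 lost their calls without any 1 TMRM-high library, and Sphk1 also without TMRM-low library 2. Both also lost them with a replicate block, and Sphk1 with limma voom. Of 12 erythroid marker genes 5 of 11 tested were higher and 1 lower, with a summed level of 606 to 631 CPM in TMRM-high and 639 to 769 CPM in TMRM-low libraries. The gene that was lower was the carbonic anhydrase gene Car2, at 316 ± 7.13 against 552 ± 54.5 CPM, and without it the sum was 291 to 322 against 118 to 154 CPM. For 10 megakaryocyte and platelet genes, a list that holds Itga2b, the sum was 441 to 453 and 222 to 250 CPM. Their part in the Mfsd2b difference was not tested.

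Of CD44 partners and membrane linkers, 2 of 20 tested genes were higher and 1 lower (median 0.048). This made 15.0% called, against 11% of all tested genes. The tetraspanin gene Cd9 (1.29, SE 0.163) and the hyaluronan-binding protein gene Hmmr (0.81, SE 0.201), which also acts at the mitotic spindle, rose. Cd74, the invariant chain gene whose product signals together with CD44, fell (-1.46, SE 0.0868). Cd47 was the most abundant uncalled gene of this list, at 775 ± 8.39 against 727 ± 25.5 CPM (0.091, edgeR adjusted p = 0.29). Leaving out any 1 TMRM-high library ended the call of Hmmr.

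Other adhesion receptors of stem and progenitor cells had 10 lower and 2 higher of 32 tested genes, with a median of -0.66. In this list 37.5% were called, against 11% of all tested genes. The list holds several surface markers of HSCs, and 7 of 17 HSC marker genes were lower. Emb, an immunoglobulin superfamily gene, had 192, 203 and 198 CPM in TMRM-high and 351, 371 and 388 CPM in TMRM-low libraries (log2 fold change -0.90, SE 0.0659, edgeR adjusted p = 0.00019). The protein C receptor gene Procr (-3.25, SE 0.299) and Adgrg1, an adhesion G protein-coupled receptor gene (-0.34, SE 0.0537), fell. The 2 that rose were the E-cadherin gene Cdh1 (3.10, SE 0.634), rare at 1.55 ± 0.226 against 0.173 ± 0.0540 CPM, and Adgre5, the CD97 gene (0.93, SE 0.229). Cdh1 and Adgre5 lost their calls without any 1 TMRM-high library, Adgre5 also without TMRM-low library 2, and Adgrg1 without TMRM-high library 2 or 3. Cdh1 and Adgre5 also lost them with a replicate block, and Cdh1 with limma voom and without a low-count filter. Cdh1 had only 4, 2 and 3 counts in the TMRM-low libraries.

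Ligands that niche cells offer had 2 of 12 tested genes higher and none lower (16.7% called against 11% of all tested genes, median 0.18). Vcam1, the gene of the VLA-4 ligand VCAM-1, had 91.6, 98.1 and 92.6 CPM in TMRM-high libraries and 0.636, 1.06 and 0 CPM in TMRM-low libraries (log2 fold change 7.41, SE 0.595, edgeR adjusted p = 0.00032). The thrombospondin gene Thbs1 rose from 4.03 ± 3.08 to 21 ± 3.03 CPM (2.39, SE 0.575). Of 12 bone marrow stroma markers, which include Vcam1, 1 of 6 tested genes was higher, namely Vcam1, and 3 (Bglap, Dcn and Lum) were at 0 counts in 5 of 6 libraries, with 2, 9 and 1 counts in TMRM-low library 1. Of 15 macrophage and dendritic cell markers, 2 were higher, Vcam1 and the iron exporter gene Slc40a1, and 7 lower. Their summed level was 485 to 507 CPM in TMRM-high and 888 to 994 CPM in TMRM-low libraries. This sum is not one of macrophage genes alone. It also holds the antigen presentation genes Cd74 (95.7 ± 5.41 against 263 ± 18.9 CPM), H2-Aa, H2-Ab1 and H2-Eb1. Angpt1 (0.30, edgeR adjusted p = 0.19), a niche factor gene that HSCs also express, and Icam2 (-0.25, edgeR adjusted p = 0.64), which encodes an LFA-1 ligand, did not pass; Angpt1 did without TMRM-low library 1. Leaving out TMRM-low library 1 or any 1 TMRM-high library ended the call of Thbs1.

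The genes with patterns most like the called members were found by the mean absolute difference of log2 CPM, centred on each gene's mean, over the 6 libraries. For Cd69 the nearest were Hp, the haptoglobin gene (0.115), and the ion channel gene Tmem38b (0.120). For Selplg they were Tmem176b (0.0369) and Abhd14a (0.0397). Hp rose (log2 fold change 1.98, SE 0.226), as did Tmem38b (2.13, SE 0.334), and Tmem176b (-0.73, SE 0.0837) and Abhd14a (-0.59, SE 0.144) fell. The call of Tmem38b ended without TMRM-high library 1 or 3, that of Abhd14a without any of the 3. In the fit with summed TMRM-high libraries, Rgs1, Rgs2, Rap1b, Mfsd2b, Cd74, Emb and Vcam1 were called, and the other genes of the 8 lists and of these nearest patterns named as risen or fallen were not. The log2 fold changes of the genes that lost the call there kept their sign and moved by at most 0.06. Summing the same libraries leaves the group level almost unchanged, so this could hardly come out otherwise and says nothing about the calls.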

How the data were processed

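RNA of sorted HSCs was measured by low-input RNA-seq (cDNA amplified over 13 PCR cycles, paired reads of 150 bases) in 3 TMRM-high and 3 TMRM-low libraries. The authors deposited 1 table of estimated counts for 28786 gene IDs, in which 27% of the values are not whole. The submitters' processing notes list Trim Galore 0.5.0, Salmon (given as 0.03.1) and GRCm38. Symbols, positions and transcript lengths were taken from GENCODE M21 (GRCm38) for 27728 IDs. The estimated counts were rounded, filtered with edgeR's filterByExpr, scaled by TMM and tested with edgeR 4.0.16 (quasi-likelihood, robust) in R 4.3.3; 13662 genes were tested with Benjamini-Hochberg adjustment. Intervals are at 95% and not adjusted. DESeq2 1.42.0, limma 3.58.1 (voom with quality weights), other scalings, filters, a threshold of 0.10, a replicate block, summed TMRM-high libraries and left-out libraries were alternatives. Amplified reads carry no molecular identifiers, so counting errors cover counting only. In data simulated for this comparison with 13662 genes, 11% of genes changed 1.5-fold, 32.5% changed 2-fold and 63.0% changed 4-fold were called. The simulation gave both groups the same spread and changed only a small part of the genes. In the real libraries the TMRM-low group varied far more. The shares are therefore not the detection rates of this comparison.

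The members and lists were chosen with earlier results of these data known. Named genes are the members, in each list up to 4 called genes with the smallest p and up to 2 uncalled genes with the highest mean CPM, the genes behind any list count of 5 or fewer, and for each called member the 2 genes of most similar pattern among genes with a mean of at least 5 CPM (compared as log2 of CPM + 1). Some genes that this rule names are not reported here. Marker genes were listed for granulocytes and monocytes, basophils, mast cells and eosinophils, erythroid cells, megakaryocytes and platelets, B cells, T and NK cells, macrophages and dendritic cells, endothelium, stroma, HSCs and the sort gate.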

Additional observations from a re-analysis of the deposited data

How the results depend on the processing

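Cd69 was called under every scaling, filter, test and left-out library tried, with log2 fold changes of 1.92 to 2.25 when 1 library was left out. Selplg was called in all but one, with -0.70 to -0.61 when 1 library was left out; with the TMRM-high libraries summed it was -0.66 (adjusted p = 0.23). Members called higher numbered 2 at an adjusted p below 0.10, 3 with DESeq2, 2 with limma voom and 1 to 3 with 1 library left out; members called lower numbered 0 with summed libraries and 1 otherwise. Itga4 was called with DESeq2 (0.37) and ranged from 0.25 to 0.46 with 1 library left out. Itgb2 was called with DESeq2 (1.11) and limma voom (1.24) and ranged from 0.79 to 1.39. Itgb1 changed sign with total-count scaling (0.012), without a low-count filter (0.0018) and without TMRM-high library 1 (0.023) or 2 (0.0011) or TMRM-low library 2 (0.096), within -0.08 to 0.096. Itgal changed sign without TMRM-low library 1 (0.12), within -0.19 to 0.12, as did Icam2 (0.051, within -0.51 to 0.051); Cdc42 did so without TMRM-low library 3 (-0.055, within -0.055 to 0.12). The cause of these changes was not tested.

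Over all genes, 798 were called higher and 700 lower; the counts were 1324 and 1337 with DESeq2, 86 and 42 with summed libraries, and 250 to 1398 and 181 to 1174 with 1 library left out. Lower calls were 1138 at an adjusted p below 0.10. In the 8 lists, 18 higher and 19 lower calls became 5 and 2 with summed libraries, and 7 to 31 and 7 to 26 with 1 library left out; lower calls were 30 at an adjusted p below 0.10 and 35 with DESeq2. Whether the replicate numbers pair the libraries could not be told. Deviations of same-numbered libraries from their group mean had correlations of -0.00721, 0.012 and 0.0116. TMRM-high library 1 was closest to TMRM-low library 2, while TMRM-high libraries 2 and 3 were closest to the TMRM-low library of the same number. The TMRM-high libraries hardly deviated from each other, so small correlations cannot exclude a pairing. With a replicate block, 582 genes were called higher and 449 lower, and the members stayed at 1 and 1. Of 47 named genes that are not members, 9 lost their call under the block, among them Itga3, Rasgrp1, Galnt1, S1pr4, Sphk1, Cdh1, Adgre5 and Abhd14a. More lost it with summed libraries. Abhd14a also lost its call without a low-count filter. Using the longest transcript, levels per kilobase in TMRM-high libraries moved for Cd69 from 279 to 186 and for Selplg from 221 to 88.5.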
